A study of Mus musculus with 2 samples.

Results

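Megakaryocyte and platelet genes were compared as a set of 34 genes between pre CFU-E of mice with and without ESAM after 5-FU. The genes were chosen by their known roles in megakaryocytes and platelets and not by a threshold on these arrays. Earlier results of these data were known when they were chosen. A transcript accession of the array matched 33 of the 34, out of 20660 genes named in all, and Bin2 had no matched probe. Pre CFU-E are marrow progenitors on the way to the erythrocyte colony-forming unit. They were sorted as cells that carried c-Kit, endoglin and CD150, lacked lineage markers and Sca1, had low CD41 and had no or low FCγRII/III. Both groups were C57BL/6 mice of 8 to 12 weeks that had received 1 injection of 120 mg/kg of 5-FU, a cytotoxic drug that depletes dividing marrow cells, and were killed 8 days later. One group was wild type (WT) and the other lacked ESAM (ESAM-KO), the endothelial cell-selective adhesion molecule. Marrow of 3 mice was pooled for each genotype, and the sorted cells were measured on 1 array per genotype. There is therefore no replicate, no SD over samples and no p-value for any value given here, and the pools, sorts and amplifications cannot be told apart from the genotypes.

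Megakaryocytes are the large marrow cells that release platelets, and they share a bipotent precursor with the red cell lineage. On the way they take up the genes for platelet surface receptors, for the contents of the α and dense granules and for the microtubule coils that shape platelets, under transcription factors of the GATA and ETS families, NF-E2 and RUNX1. ESAM itself is known on endothelial cells, stem cells, megakaryocytes and platelets. The CD41 protein of the sort gate is the product of one of the 34 genes, Itga2b, so both sorts held its protein within a set range.

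The promoters of 8 members are shown because they belong to the von Willebrand factor receptor, whose 4 subunits assemble with each other, to the neighbouring chemokine genes Pf4 and Ppbp, and to F2rl2 and Treml1. F2rl2 had the largest bound of the members, and Treml1 the lowest ratio of those above background on both arrays. Each promoter is the 150 bases before the annotated start in the gene's own direction, from RefSeq on build GRCm38.p6. Capitals mark the motif of GATA factors, searched as AGATAA, and that of ETS factors, searched as AGGAAG, each on both strands, so that the reverse complements TTATCT and CTTCCT are in capitals too. No match overlaps another in these windows. The windows are chr11:70638972-70639121 (plus strand) for Gp1ba, chr16:18622404-18622553 (minus) for Gp1bb, chr6:87777920-87778069 (plus) for Gp9, chr16:30310782-30310931 (minus) for Gp5, chr5:90772285-90772434 (plus) for Pf4, chr5:90768368-90768517 (plus) for Ppbp, chr13:95696770-95696919 (plus) for F2rl2 and chr17:48359766-48359915 (plus) for Treml1.
Gp1ba: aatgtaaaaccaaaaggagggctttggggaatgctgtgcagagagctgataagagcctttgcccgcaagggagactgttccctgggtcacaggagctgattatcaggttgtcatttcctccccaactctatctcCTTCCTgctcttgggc
Gp1bb: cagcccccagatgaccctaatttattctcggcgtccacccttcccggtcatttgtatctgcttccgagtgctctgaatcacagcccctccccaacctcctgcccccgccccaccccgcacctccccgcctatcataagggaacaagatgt
Gp9: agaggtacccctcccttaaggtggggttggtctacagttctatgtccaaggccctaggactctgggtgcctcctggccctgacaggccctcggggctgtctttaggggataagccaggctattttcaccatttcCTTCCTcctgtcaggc
Gp5: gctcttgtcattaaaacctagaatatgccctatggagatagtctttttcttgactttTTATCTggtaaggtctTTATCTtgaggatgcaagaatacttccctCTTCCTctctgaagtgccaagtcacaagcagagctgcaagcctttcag
Pf4: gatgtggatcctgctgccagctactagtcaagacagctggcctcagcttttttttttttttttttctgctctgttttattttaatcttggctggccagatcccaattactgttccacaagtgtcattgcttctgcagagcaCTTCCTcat
Ppbp: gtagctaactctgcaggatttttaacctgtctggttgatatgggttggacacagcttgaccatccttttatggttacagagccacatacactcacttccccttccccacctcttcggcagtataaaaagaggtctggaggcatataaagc
F2rl2: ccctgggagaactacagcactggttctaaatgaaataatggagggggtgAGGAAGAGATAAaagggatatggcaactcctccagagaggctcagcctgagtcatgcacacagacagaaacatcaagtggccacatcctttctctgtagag
Treml1: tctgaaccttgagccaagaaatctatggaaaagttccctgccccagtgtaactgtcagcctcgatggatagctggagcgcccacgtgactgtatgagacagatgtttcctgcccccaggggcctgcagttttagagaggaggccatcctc

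A promoter sequence was at hand for 29 of the members. The ETS motif stood within these 150 bases in 15 of the 29 (51.7%), against 19.7% of all 32851 promoters of the table, and the GATA motif in 3 of 29 (10.3%), against 5.65%. The members that hold the GATA motif were Gp5, Gp6 and F2rl2. Gp1ba and Gp9 held the ETS motif at the same place, from 16 to 11 bases before the start. Pf4 held it from 9 to 4 bases before the start, whereas its neighbour Ppbp held neither motif. These are matches of the searched letters and describe the windows only, without a measure of binding. Other forms of either motif were not searched.

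Of the 33 members on the array, 18 were well above background on both arrays, 8 on one array only and 7 on neither. The share seen on one array only, 24.2%, compares with 7.89% of all named genes, and the share seen on neither, 21.2%, with 31.0%. Values below are the processed signal of the scanner software in arbitrary units, and each log2 ratio sets ESAM-KO over WT after both arrays were scaled to their 75th percentiles, 201.1 in WT and 250.4 in ESAM-KO. The scaling lowers every log2 ratio by 0.32. Signals well above background began at 12.6 in WT and at 13.2 in ESAM-KO, with 0 saturated spots. Some members without that mark read higher, such as Thbs1 at 15.5 in WT and Ptgs1 at 14.0 in ESAM-KO. These lowest signals are therefore not detection limits, and the bounds below would be smaller with a higher floor. Where a member was above background on one array, the ratio is a bound against the higher of its own signal and that lowest signal, and the direction of such a member is fixed by the way it was selected. The probe for Esam read 27.4 in WT against 20.6 in ESAM-KO, for a log2 ratio of -0.73 with a scanner error of 0.31, a weak check of the genotypes.

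**Figure D1:**
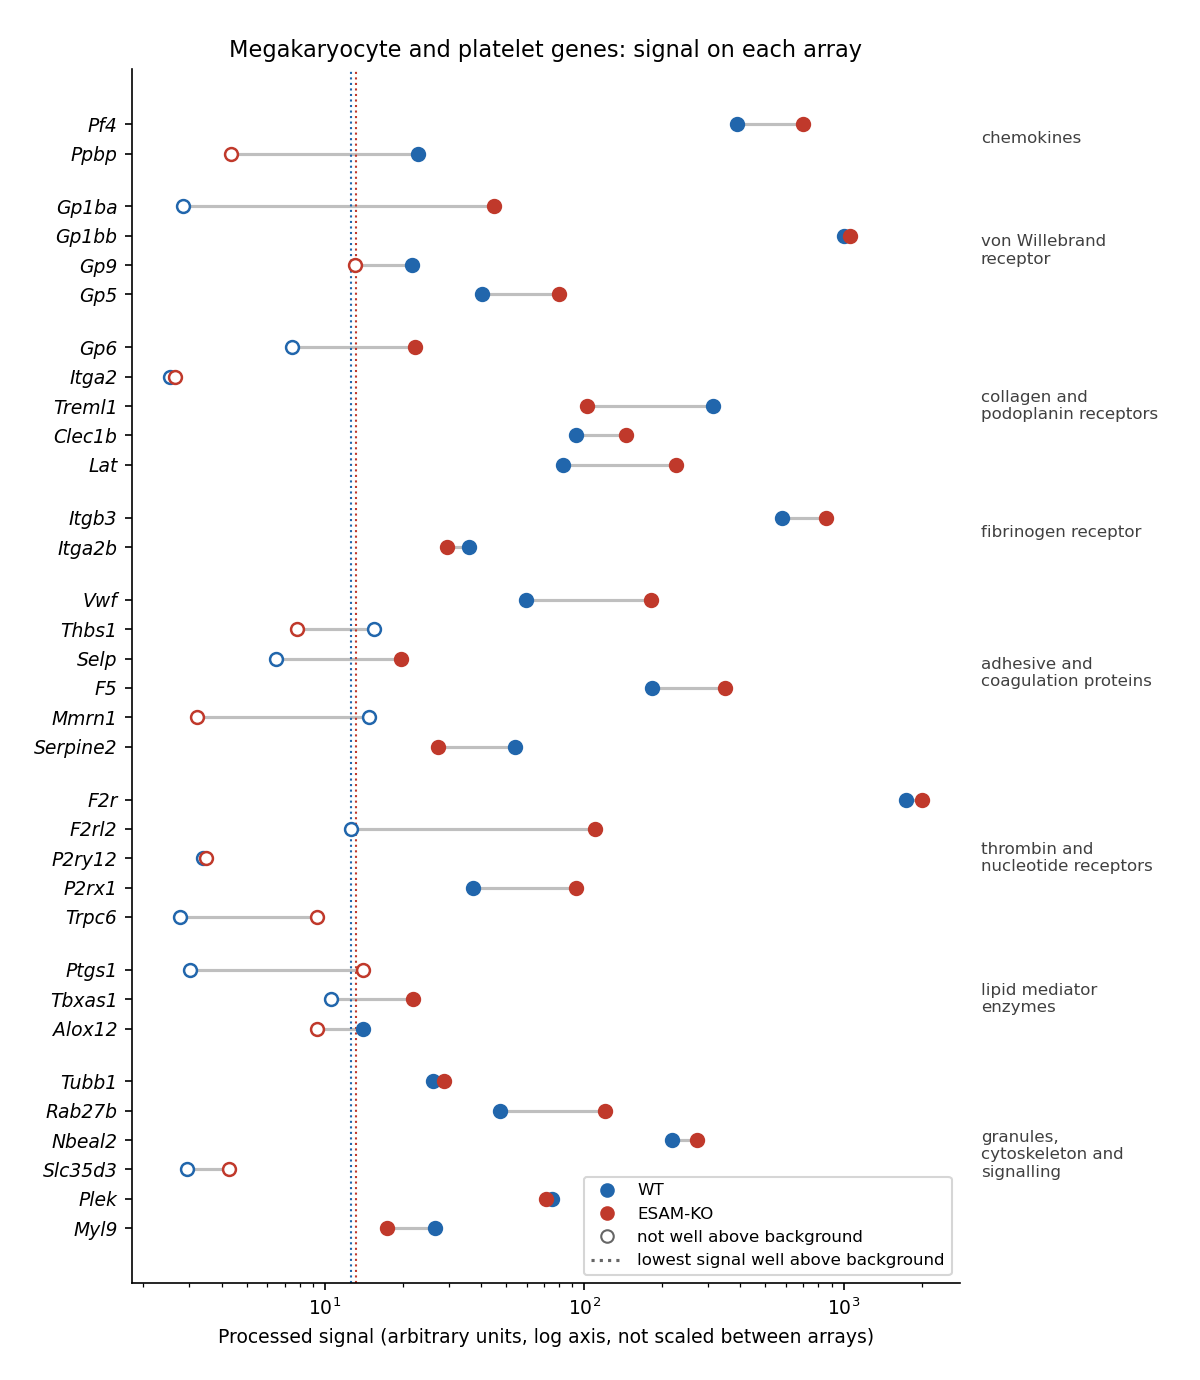
Processed signal of each of the 33 members in WT (blue) and in ESAM-KO (red), in arbitrary units on a log axis and not scaled between arrays, grouped by role, with open circles for signals not well above background and dotted lines at the lowest signal well above background on each array (12.6 and 13.2). Members placed in one group can differ in opposite directions, as Treml1 and Lat do. Both stand in the group labelled collagen and podoplanin receptors, though neither encodes such a receptor.

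By more than 2-fold, 3 of the 18 members above background on both arrays were higher in ESAM-KO (Vwf, Lat and Rab27b), where 5.22% of all 12615 such genes were, and 2 were lower (Treml1 and Serpine2), where 7.34% were. Both directions together came to 27.8% of these members, a set chosen with earlier results known, and 12.6% of all such genes. With bounds counted, 5 of 26 members were higher, Gp1ba and F2rl2 being added, against a background of 7.00% of 14146 genes, and 4 were lower, Ppbp and Gp9 being added, against 8.39%. Of the 18 members, 9 had a ratio above 0 and 9 a ratio below 0. Their median log2 ratio was 0.12, beside -0.02 for all named genes. The members thus did not lie on one side as a set, and the genes described below differed in both directions. In sorted cells measured in bulk, fewer cells of a type and less RNA per cell cannot be told apart.

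**Figure D2:**
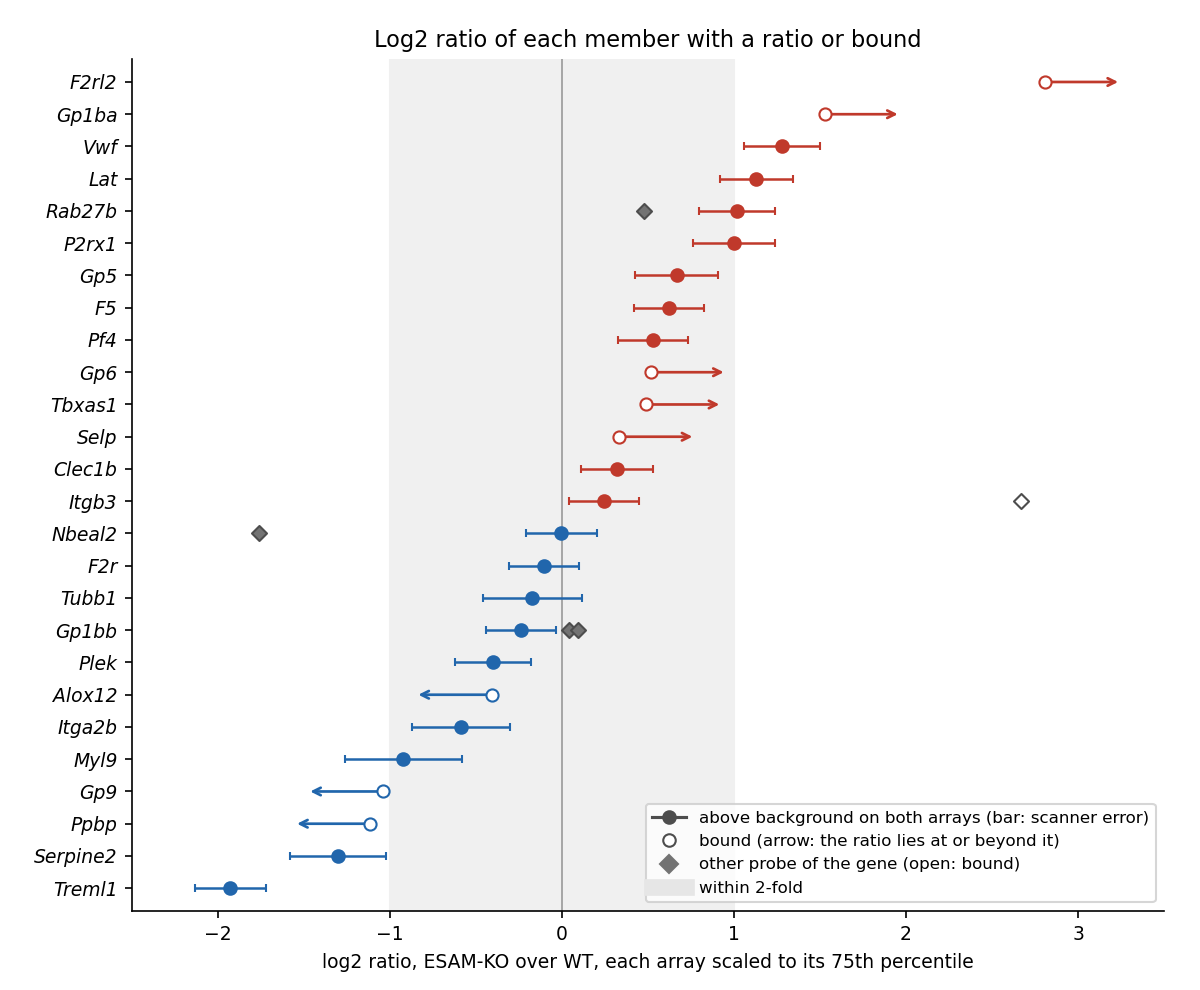
Log2 ratio of ESAM-KO over WT of the 26 members with a ratio or bound, with bars for the scanner software's error, arrows on bounds and diamonds for further probes of the same gene. The ratios run from -1.93 for Treml1 to a bound of 2.81 for F2rl2, and the further probes of Itgb3 and Nbeal2 lie far from their brightest probes.

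The receptor for von Willebrand factor, which tethers platelets to injured vessel walls, is built from the products of Gp1ba, Gp1bb, Gp9 and Gp5. Of its 4 subunit genes, 2 were above background on both arrays, and the other 2 gave bounds. Gp1ba (NM_010326), the ligand-binding chain, read 2.83 in WT, not well above background, against 45.1 in ESAM-KO, at least 2.88-fold higher. Gp9 (NM_018762), the small chain needed to bring the complex to the surface, read 21.7 in WT against 13.1 in ESAM-KO, where it was not well above background, at least 2.05-fold lower, with a scanner error of 0.49. That bound came within 2-fold without scaling, at -0.72, and with normexp, at -0.31. These 2 genes carry the ETS motif at the same place before their starts, and the direction of each bound follows from the array on which the gene was above background. Gp1bb, whose product is disulfide-linked to that of Gp1ba, read 1000.1 in WT against 1057 in ESAM-KO, for a log2 ratio of -0.24 with a scanner error of 0.20. Its other 2 probes, both well above background on both arrays, gave 0.04 and 0.09, so that all 3 ratios of Gp1bb stayed near 0. These 2 probes were far dimmer, at 30.8 and 28.6 in WT against 39.3 and 37.9 in ESAM-KO. The level of Gp1bb thus rests on its brightest probe. Gp5, the subunit cleaved by thrombin, read 40.5 in WT against 80.0 in ESAM-KO, for a log2 ratio of 0.67 with an error of 0.24 and 1.59-fold higher.

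Pf4 and Ppbp encode CXC chemokines of the platelet α granule and lie side by side on chromosome 5, with 0 coding genes between them. Pf4 (NM_019932) read 389 in WT against 699 in ESAM-KO, for a log2 ratio of 0.53 with an error of 0.20. Ppbp (NM_023785), the precursor of platelet basic protein, read 22.9 in WT against 4.365 in ESAM-KO, where it was not well above background, at least 2.17-fold lower. The Ppbp signal was above background in WT only, which fixes the direction of its bound, and its scanner error was 1.19. Without scaling, the bound for Ppbp was within 2-fold, at -0.80.

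Collagen and podoplanin start platelet activation through receptors that signal by way of the adaptor LAT. Treml1 (NM_027763), grouped here but not a receptor for either ligand, encodes a receptor kept in α granules until platelets are activated. Treml1 read 314 in WT against 103 in ESAM-KO. It was 3.80-fold lower, a log2 ratio of -1.93 with an error of 0.21, and was the lowest ratio among the members above background on both arrays. It stayed past 2-fold under all 12 alternative settings, from -2.06 to -1.60. Of these, the 2 filters, the mean of probes and the signal floor could not change it. Treml1 had 1 probe, above background on both arrays. Lat (NM_010689) went the other way, from 82.7 in WT to 225 in ESAM-KO, 2.19-fold higher with a log2 ratio of 1.13 and an error of 0.21. LAT also serves the T cell receptor, and the sort removed cells that carry CD3e, a part of that receptor, among the lineage markers. Of 9 T and NK cell markers, 4 were below background in WT and 5 in ESAM-KO. The 5 above background on at least 1 array summed to 3.98 in WT and 5.28 in ESAM-KO, in units of each array's 75th percentile. In unscaled units, Cd4 made up 449 of 801 in WT and 864 of 1323 in ESAM-KO. Cd3d, above background in WT only, was at least 3.75-fold lower, and the other 4 had ratios above 0. The part of T and NK cells in the Lat value was not tested.

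Of the receptors themselves, one was above background on both arrays. Clec1b, which encodes the podoplanin receptor CLEC-2, read 93.1 in WT against 145 in ESAM-KO, for a log2 ratio of 0.32 with an error of 0.21, while its other 2 probes were not well above background on either array. Gp6, the immunoglobulin-family collagen receptor, read 7.45 in WT, not well above background, against 22.4 in ESAM-KO, at least 1.43-fold higher. Itga2, the α chain of the collagen-binding integrin, read 2.52 and 2.65 and was above background on neither array.

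The fibrinogen receptor αIIbβ3, through which platelets aggregate, is the product of Itga2b and Itgb3. Itga2b (NM_010575) read 35.8 in WT against 29.7 in ESAM-KO, 1.501-fold lower with a log2 ratio of -0.59 and an error of 0.28. Its protein set part of the sort gate, which bounds how far the cells of both sorts could differ in it. Itgb3 (NM_016780), whose product also pairs with another α chain, had 2 probes that disagreed. The brighter read 581 in WT against 856 in ESAM-KO, for a log2 ratio of 0.24. The other read 12.7 in WT, not well above background, against 100.3 in ESAM-KO, at least 6.35-fold higher. Both probes were higher in ESAM-KO, but the size of the difference for Itgb3 rests on the choice of probe, as the mean over its probes was 1.45 on the log2 scale.

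Among the adhesive and coagulation proteins that platelets store or bind, Vwf was the furthest above WT of the members above background on both arrays. Vwf (NM_011708), the carrier of factor VIII and the ligand of the Gp1ba product, read 59.8 in WT against 180.5 in ESAM-KO, 2.42-fold higher with a log2 ratio of 1.28 and an error of 0.22. With normexp background correction and quantile normalization it was within 2-fold, at 0.74. Serpine2 (NM_009255), a thrombin inhibitor of α granules also called protease nexin-1, read 54.1 in WT against 27.3 in ESAM-KO, 2.47-fold lower with a log2 ratio of -1.30 and an error of 0.28. That ratio was -0.99 without scaling and -0.52 with normexp, so that its place beyond 2-fold depends on the setting. F5, coagulation factor V, read 182 in WT against 349.6 in ESAM-KO, for a log2 ratio of 0.62 with an error of 0.21. Its second probe was not above background on either array.

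Selp, which encodes P-selectin of the α granule membrane, was the one member spotted 10 times, and 9 of the spots were free of outlier marks. In WT these spots ran from 2.86 to 15.5 with a median of 7.15, and 0 of 9 were well above background. In ESAM-KO they ran from 14.8 to 29.0 with a median of 19.6, and 7 of 9 were well above background. The ESAM-KO signal was the higher in 8 of the 9 spots after scaling, with a mean log2 ratio of 1.29 ± 0.91 (SD over 9 spots of one array pair, not over mice). Taken as a bound, its ESAM-KO signal lay at least 1.26-fold higher. The spread over these spots shows how far a single spot at such signals can lie from the mean of its probe, and the other members rest on 1 spot per probe. Selp lies next to F5 on chromosome 1, with 0 coding genes between them. Thbs1, thrombospondin-1, read 15.5 and 7.80, and Mmrn1, which encodes the factor V carrier multimerin, read 14.8 and 3.23. Neither was well above background on either array.

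Vwf and Selp are also genes of endothelial cells. Of the 14 endothelial markers, the 9 above background on at least 1 array summed to 20.9 in WT and 21.9 in ESAM-KO in units of the 75th percentile. Kdr and Egfl7 made up most of the WT sum, at 2056 and 1706 of 4209 unscaled units. Cdh5, Tie1, Flt4, Robo4 and Lyve1 were above background on neither array. Of the 9 with a ratio or bound, Tek and Stab2 were higher by more than 2-fold, both by bounds, where 7.00% of all such named genes were. Pecam1, an adhesion molecule that platelets and leukocytes also carry, was lower, from 284 in WT to 88.8 in ESAM-KO. The part of endothelial RNA in the Vwf and Selp values was not tested.

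Thrombin and nucleotides act on platelets through G protein-coupled receptors and ion channels. F2rl2 (NM_010170), which encodes PAR3, the thrombin-binding partner of PAR4 on mouse platelets, had the largest bound of the members. Bounds do not rank the ratios behind them. Without the detection filter, the log2 ratio of Gp1ba was 3.68, beyond the 2.81 of F2rl2. F2rl2 read 12.6 in WT, not well above background, against 110 in ESAM-KO, at least 7.00-fold higher. The bound was past 2-fold under all 11 alternatives that gave a value, from 1.12 with normexp to 3.12 without scaling. Leaving out the detection filter, taking the mean of probes and using the signal floor left it unchanged. F2r, which encodes PAR1, lies near F2rl2 on chromosome 13 with 1 coding gene between them, and read 1737 in WT against 2012 in ESAM-KO. The log2 ratio of -0.10 came with an error of 0.20, so that it differed by less than the scanner error. F2rl3, the gene for PAR4 and no member, named after its values were seen, read 27.9 in WT against 51.5 in ESAM-KO, for a log2 ratio of 0.57.

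P2rx1 (NM_008771), an ATP-gated calcium channel of platelets, read 37.3 in WT against 93.0 in ESAM-KO, 1.999-fold higher with an error of 0.24 on the log2 scale, which leaves it just inside 2-fold. It was past 2-fold in 3 of the 12 alternatives, without scaling, in the series table and with the percentile taken over probes above background. The ADP receptor gene P2ry12 read 3.41 and 3.496, and the cation channel gene Trpc6 read 2.77 and 9.36, both above background on neither array.

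Platelets make lipid mediators from arachidonic acid through cyclooxygenase-1, thromboxane synthase and 12-lipoxygenase. All 3 genes sat near the floor of the arrays. Ptgs1, the gene of cyclooxygenase-1, read 3.03 in WT against 14.0 in ESAM-KO and was well above background on neither. Tbxas1, thromboxane synthase, read 10.6 in WT, not well above background, against 22.0 in ESAM-KO, at least 1.40-fold higher. Alox12 read 14.0 in WT against 9.35 in ESAM-KO, where it was not well above background, at least 1.33-fold lower. No difference of 2-fold was detectable for these enzymes at such signals.

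Of the genes for granules, the cytoskeleton and signalling, Rab27b was the only one past 2-fold by its brightest probe. Rab27b (NM_030554), a small GTPase of dense granules, read 47.6 in WT against 119.9 in ESAM-KO, 2.02-fold higher with an error of 0.22 on the log2 scale, while its second probe read 22.4 and 38.8 at a log2 ratio of 0.48. Both probes were higher in ESAM-KO. The value of the gene came within 2-fold under 5 of 12 alternatives, one of them the mean of its probes. Nbeal2, the gene lost in gray platelet syndrome and needed for α granules, had 2 probes at odds. One read 219 in WT against 271 in ESAM-KO, for a log2 ratio of 0.00, and the other read 142 and 52.2, at -1.76. A spread this wide, 1.76 on the log2 scale, was exceeded by 7.66% of the 3056 genes with more than 1 probe above background on both arrays, for which the median spread was 0.47.

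Tubb1, the β1 tubulin of the platelet marginal band, read 26.2 in WT against 28.9 in ESAM-KO, for a log2 ratio of -0.17 with an error of 0.29. Plek, pleckstrin, a protein kinase C substrate, read 75.3 and 71.1, a ratio of -0.40 with an error of 0.22. Myl9, a myosin light chain that moves platelet actin, read 26.5 in WT against 17.4 in ESAM-KO, for a log2 ratio of -0.92 with an error of 0.34. Myl9 was thus 1.90-fold lower and Tubb1 was within its error. Slc35d3, a dense granule gene, read 2.94 and 4.26 and was above background on neither array. In all, Tubb1, F2r and Nbeal2 had ratios within the scanner error, which was 0.20 to 0.34 among the 18 members.

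**Figure D3:**
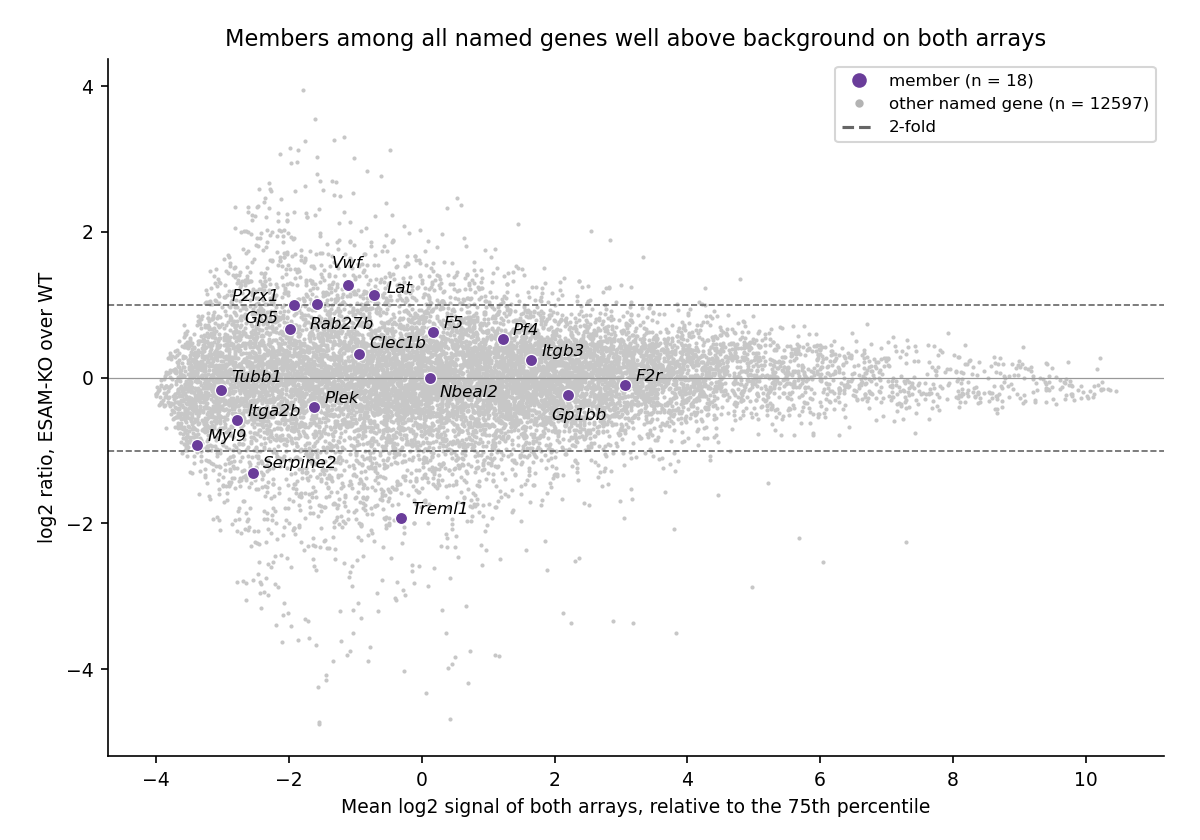
Log2 ratio of ESAM-KO over WT against the mean log2 signal of both arrays relative to the 75th percentile, for the 18 members (purple, labelled) and the other named genes well above background on both arrays, with dashed lines at 2-fold. The members lie within the cloud of all genes, and those past 2-fold lie in its dimmer part, where 19.0% of genes in the second quartile of signal were also past 2-fold.

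The signal of a member bears on how far its ratio can be read. In quartiles of mean signal over the genes above background on both arrays, 17.9% of all genes in the dimmest quartile were past 2-fold, 19.0% in the next, 10.8% in the third and 2.63% in the brightest. The members fell into these quartiles as 7, 7, 2 and 2. Of the 5 members past 2-fold, Serpine2 was in the dimmest quartile and Treml1, Vwf, Lat and Rab27b were in the second. Pf4, Itgb3, Gp1bb and F2r, in the upper quartiles by their brightest probes, were all within 2-fold.

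The other genes of the platelet programme were taken from 5 lists. Beside the counts in these lists stand 7.00% of all named genes with a ratio or bound that were higher by more than 2-fold and 8.39% that were lower. None of the 16 megakaryocyte transcription factors was higher by more than 2-fold and 2 were lower, with a median log2 ratio of -0.30. Nfe2, the p45 subunit of NF-E2 needed for platelet release, read 1296 in WT against 637 in ESAM-KO, for a log2 ratio of -1.34 with an error of 0.20. Mrtfa, the coactivator of serum response factor, read 67.1 and 29.5, a ratio of -1.50. Of the other factors, Gata1 read 5959 in WT against 5889 in ESAM-KO (-0.33), Fli1 174 and 179 (-0.28) and Runx1 206 and 156 (-0.72), each within 2-fold. In thrombopoietin signalling, 1 of 9 genes with a value was higher and 0 were lower, with a median of -0.39 over the 7 above background on both arrays. The higher one was Socs3, a feedback inhibitor, at least 2.11-fold by its bound.

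Among platelet receptor signalling genes, 1 of 20 was higher and 2 were lower, with a median of -0.44. The kinase gene Btk read 263 in WT against 929 in ESAM-KO, for a log2 ratio of 1.51. Cd36, a scavenger receptor that red cell precursors and macrophages also carry, read 354 in WT against 16.7 in ESAM-KO, a ratio of -4.72. Fcer1g, the Fc receptor γ chain that pairs with GPVI and also serves mast cells and neutrophils, read 457 and 90.7, a ratio of -2.65. In granule formation and release, 1 of 22 was higher and 5 were lower, with a median of 0.09 over the 19 above background on both arrays. The lower ones were led by Lyst, the gene of Chediak-Higashi syndrome (at least 4.07-fold), Hps5 (-1.70), F13a1, coagulation factor XIII A (at least 2.99-fold), and Rab27a (-1.47). The remaining genes past 2-fold, Hps4 at 1.40 and Sparc at -1.01, are named after their values were seen. Rab27a and the member Rab27b, related GTPases, thus lay on opposite sides. In the proplatelet cytoskeleton, 0 of 18 were higher and 2 were lower, with a median of -0.15. These were Actn1, α-actinin, from 143 to 42.7 (-2.06), and Vcl, vinculin, from 1402 to 691 (-1.34).

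**Figure D4:**
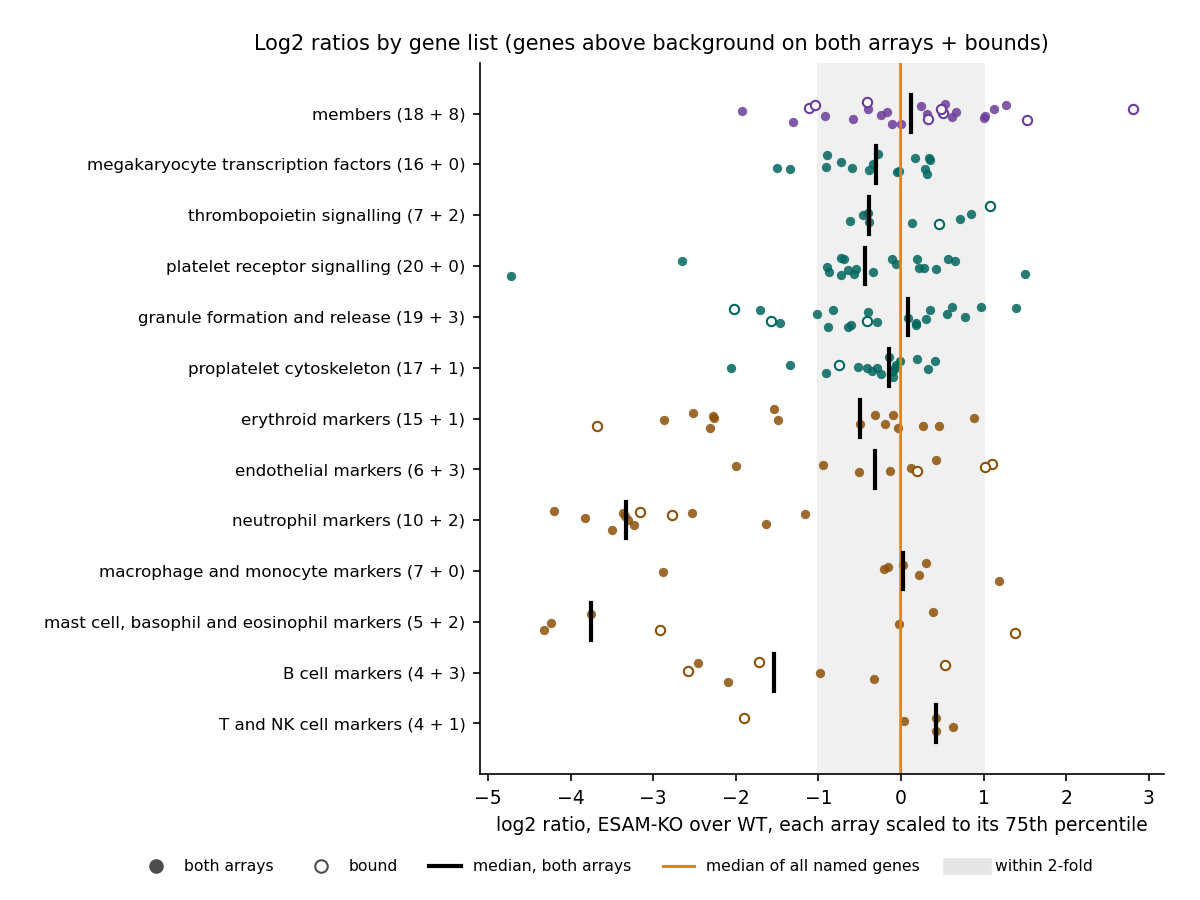
Log2 ratios of ESAM-KO over WT for the members, the 5 lists of the platelet programme (green) and the 7 lists of markers of other cell types (brown), with open circles for bounds, black bars for medians over genes above background on both arrays, and an orange line at the median of all named genes (-0.02). The numbers in brackets are genes above background on both arrays plus genes with a bound. The members centre near 0, whereas the neutrophil markers all lie beyond 2-fold on the lower side.

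Markers of other blood cells also differed between the arrays, although the lineage antibodies of the sort were directed at granulocyte, B cell, T cell and late erythroid surface proteins. All 12 neutrophil markers of the array lay lower in ESAM-KO, each past 2-fold, and their summed signal in units of the 75th percentile was 292 in WT and 40.1 in ESAM-KO. Over all named genes with a ratio or bound, 8.39% were lower and 7.00% higher by more than 2-fold. Over the 15 erythroid markers above background on both arrays, the median log2 ratio was -0.49. The 16 erythroid markers summed to 539.6 and 173, with 8 lower and 0 higher. Those of mast cells, basophils and eosinophils summed to 20.8 and 9.21, with 4 of 7 lower and 1 higher, those of B cells to 2.90 and 0.917, with 4 of 7 lower, and those of macrophages and monocytes to 35.1 and 31.6, with 1 of 7 lower and 1 higher. The 26 members above background on at least 1 array summed to 25.4 in WT and 26.4 in ESAM-KO. Every other sum here also covers only such genes. These sums are weighted to their brightest genes. In WT, in unscaled units, F2r made up 1737 and the brightest probe of Gp1bb 1000.1 of 5100 among the members. Csf1r made up 6554 of 7059 among the macrophage and monocyte markers, and Hba-a1 69472 of 108500 among the erythroid markers. The lower values of Treml1, Serpine2, Ppbp and Gp9 stand beside the lower sums of several marker lists. The part of other cells in these values was not tested.

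The 9 members past 2-fold held that place to different degrees when the processing was changed. Treml1 and F2rl2 did so under every alternative that gave them a value. Gp1ba and Vwf came within 2-fold with normexp and quantile normalization only, at 0.56 and 0.74. Lat did so with normexp, at 0.69, and with median scaling, at 0.999. Serpine2, Ppbp and Gp9 came within 2-fold with normexp and without scaling, and Rab27b under 5 alternatives. Myl9, within 2-fold as reported, was past it at -1.05 with median scaling or quantile normalization. Without scaling, which raises every ratio by 0.32, Gp1bb, F2r, Tubb1, Nbeal2, Fli1 and the medians of the transcription factor and proplatelet lists turned from below 0 to above it. The median of the granule list turned below 0 with median scaling.

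**Figure D5:**
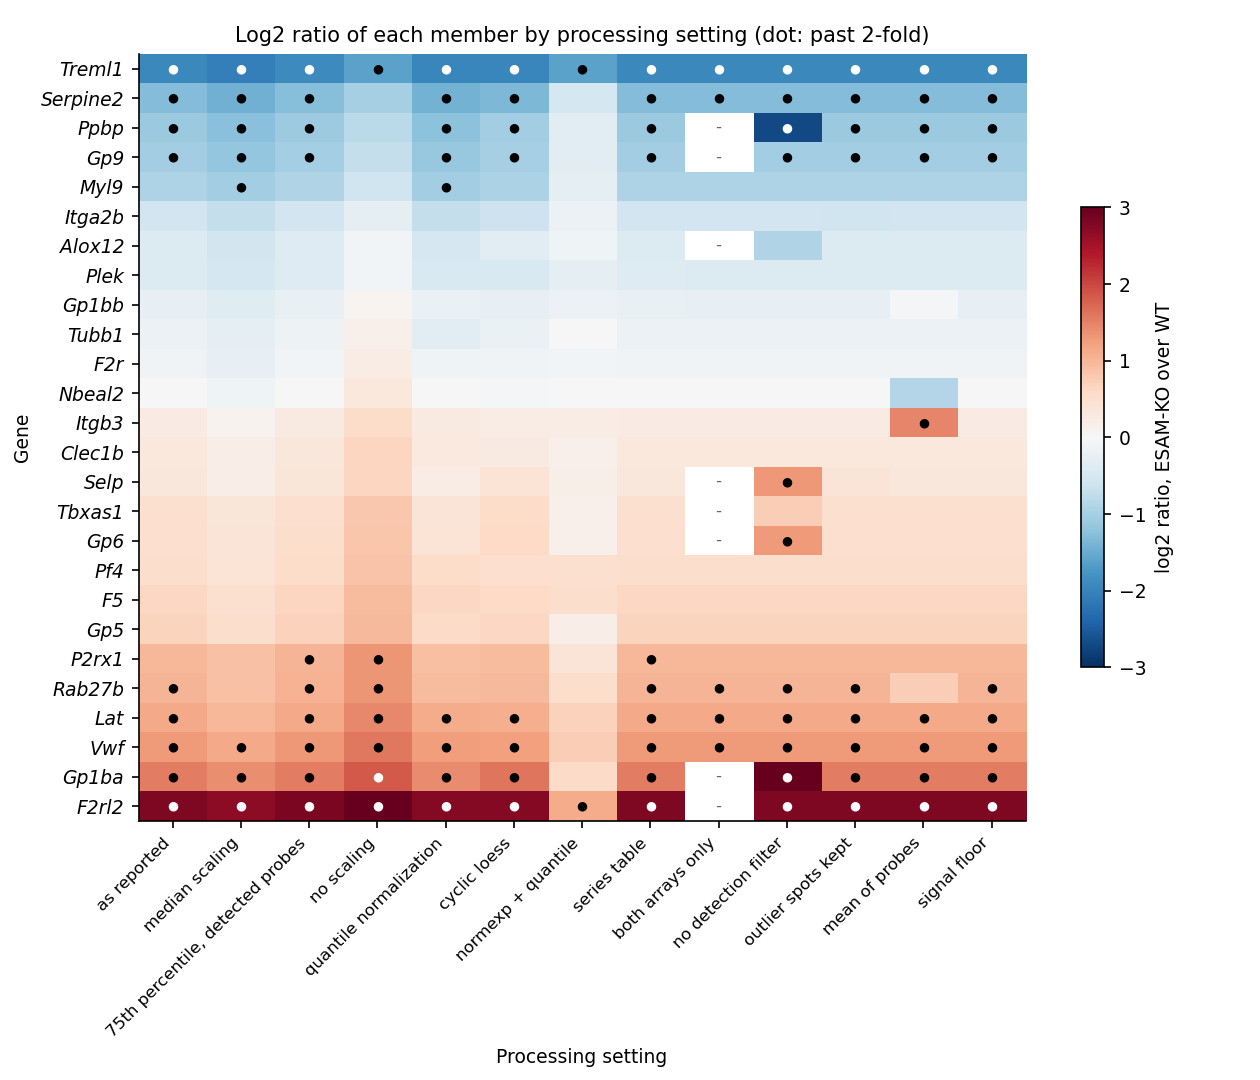
Log2 ratio of ESAM-KO over WT of the 26 members with a value (rows) under the setting reported here and 12 alternatives (columns), coloured from blue (lower in ESAM-KO) to red (higher), with a dot where the ratio is past 2-fold and a dash where the setting gives no value. Treml1 and F2rl2 keep their dot in every column with a value, and the normexp column holds 1 dot in each direction.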

How the data were processed

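Pre CFU-E of each genotype were measured on 1 Agilent SurePrint G3 mouse array with Cy3-labelled cDNA, amplified from total RNA by the Ovation Pico WTA system. The authors deposited the scanner output of Agilent Feature Extraction 10.10.1.1 (version per the submitters' processing notes), whose processed intensity is background-subtracted within the array and not scaled between arrays. In the deposited series table these intensity values are rounded to 3 significant digits (largest difference 0.50%), with column medians of 20.8 and 28.2. Its scale, centring and direction are therefore known: linear, uncentred, 1 column per array.

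From these values, control spots and 254 spots marked as outliers were left out, log2 was taken and the 75th percentile of each array was subtracted. Spots of one probe were averaged. A probe was above background if over 50% of its spots carried that mark, as did 57.3% of all spots in WT and 61.1% in ESAM-KO. RefSeq accessions named 48.9% of the 55680 probes. A gene was represented by its brightest probe among those above background on at least 1 array, a preference set after the files were seen. The scanner error combines the software's error of both signals. Precision is limited by the number of arrays.

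The members and all lists were chosen with earlier results of these data known. The rule for genes named in the text gives all members, Esam, Gata1, Fli1, Nfe2, Runx1 and, from each list, at most the 4 genes furthest past 2-fold. The values of 1 further gene of the rule are not reported here. The marker genes Cdh5, Tie1, Flt4, Robo4 and Lyve1 were named because they were below background. Kdr, Egfl7, Csf1r, Cd4 and Hba-a1 were named for their large part in a sum. Mkl1 and Diap1 of the lists were matched as Mrtfa and Diaph1. The 12 alternatives were 5 other scalings or normalizations, normexp with an offset of 50 on median spot signals (mean signals are not used here), outlier spots kept, the series table, the mean of probes, a signal floor and 2 filters for dim probes, besides thresholds of 3-fold and 1.5-fold. Python 3.11.15 (pandas 2.3.3, numpy 2.4.6, matplotlib 3.10.9) and R 4.3.3 (limma 3.58.1) were used, and the counting was tested on simulated data.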

Additional observations from a re-analysis of the deposited data

How the results depend on the processing

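No paired analysis was possible because only 1 array was made per genotype. The 26 members had 304 values under 12 alternatives, of which 269 moved by less than the scanner error and 35 by more, and 0 members past 2-fold changed sign. Part of these 269 were fixed in advance. The filters, the signal floor and the mean of probes cannot move a single-probe member above background on both arrays. The count of members higher in ESAM-KO, 5 as reported, was 3 with median scaling, 1 with normexp, 3 with genes above background on both arrays only, 9 without the detection filter, 1 at 3-fold and 8 at 1.5-fold. The share of all genes that were higher, 7.00% as reported, was 5.34% with median scaling, 1.67% with normexp, 5.22% with both arrays only and 8.74% without the detection filter. The count of lower members, 4 as reported, was 1 without scaling, 1 with normexp, 2 with both arrays only and 1 at 3-fold. The share of all genes that were lower, 8.39% as reported, was 5.12% without scaling, 3.43% with normexp and 7.34% with both arrays only. The median of the members, 0.12 as reported, was 0.44 without scaling, where the median of all genes also moved up by 0.32. It was -0.01 with median scaling, where all genes moved by -0.13, and -0.04 with the mean of probes. The 14 genes past 2-fold in the 5 lists of the platelet programme became 7 with normexp. The cause of these changes was not tested, apart from the scalings, which shift every ratio alike, and the thresholds and filters, which change what is counted. The members known only by a bound are limited by the lowest signals well above background, 12.6 and 13.2.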
